A study of Mus musculus with 16 samples.

Results

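Feeding mice a diet rich in fat is a standard way to load the liver with lipid, and the comparison described here set the livers of wild-type C57BL/6 mice on high-fat diet against those of wild-type C57BL/6 mice on chow. Its members were the 4 RNA libraries labelled HFD and Wildtype and the 3 labelled Chow diet and Wildtype, 7 of the 16 libraries of a series on liver-specific loss of the microRNA miR-33, and all genes were compared. The other libraries, 4 on chow and 5 on high-fat diet, came from C57BL/6 mice labelled miR-33 Liver knockout and served here as a repeat of the diet contrast in another genotype with no shared control. The deposited table is named for Alb-Cre, a recombinase driven in hepatocytes by the albumin promoter, and whether the wild-type mice carried it or a floxed allele is not stated by the labels. Nor are sex, age, fat content and time on the diet, or a statement that each library is a separate animal, so p-values measure the spread between libraries, which may be technical. The numbers in the library titles form separate series for each diet, and an effect of the diet and one of the series cannot be told apart.

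As background, the liver makes fatty acids from surplus carbohydrate, a route switched on by insulin and the transcription factor SREBP1c, and burns them in mitochondria and peroxisomes under PPAR-alpha, the receptor for fatty acids. Surplus fat is stored in droplets or exported as lipoprotein, and cholesterol leaves as bile acid. In long-standing fatty liver disease macrophages gather around damaged hepatocytes, stellate cells turn into collagen-producing myofibroblasts, and hepatocytes lose part of their specialised programme. Mouse liver is also sexually dimorphic, since the pulses of growth hormone in males act through STAT5 to keep a set of male-biased genes high.

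Library totals were 17502937 to 22902669 estimated counts on chow and 16149911 to 25823475 on high-fat diet. Levels are given as CPM, estimated counts scaled to a common TMM-adjusted library total, in library order, and a floor of 3 counts lay between 0.104 and 0.178 CPM in these libraries. The first principal component of the wild-type libraries held 57.8% of their variance and separated the diets, with chow at -64.5 to -45.5 and high-fat diet at 27.9 to 53.6. On the second, chow 3 at -45.9 and chow 2 at 33.8 lay at opposite ends, with chow 1 at 12.1 and the high-fat libraries at -7.58 to 9.97. Ribosomal RNA (CT010467.1) took 2.54% of the counts of chow 3, against 11.3 and 13.3% for chow 1 and chow 2 and 1.36 to 10.3% on high-fat diet, and its part in the results was not tested beyond leaving that gene or that library out. The hepatocyte marker Alb, which encodes albumin, had 58214 to 65679.6 CPM on chow and 50083 to 63231 on the high-fat diet, and the Y-linked genes Ddx3y, Eif2s3y, Kdm5d and Uty had counts in every library. One knockout library, high-fat knockout 1, went against the rest of its group for male-biased genes, and results that rest on it are given with and without it.

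The libraries separated by diet across much of the transcriptome. Of 16830 genes tested, 4946 (29.4%) passed the edgeR quasi-likelihood test at an adjusted p under 0.05, 2564 higher (15.2%) and 2382 lower (14.2%) on high-fat diet. Changes of at least 2-fold were mostly rises, 1460 genes (8.67%) against 410 falls (2.44%). With library totals alone these numbered 2115 and 217. Rises and falls divided by the level of the gene. Among 1229 genes averaging at least 100 CPM over the 4 groups, 538 fell (43.8%) and 116 rose (9.44%). Among 6001 genes between 1 and 10 CPM, by contrast, 1210 rose (20.2%) and 438 fell (7.30%). Falls in the groups of abundant liver genes below are to be read beside the 43.8%. TMM factors were 0.855 to 0.966 on chow and 1.04 to 1.17 on high-fat diet, so the scaling itself moved with diet. With library totals alone the median log2 fold change of all genes was 0.24 instead of -0.02, and 4748 genes were called higher and 709 lower. Fold changes and intervals are relative to the TMM scaling, and a gene group's count that library totals or a single library move by over 1.5 times is given beside it. Counts of 4 or fewer members often moved by as much with single libraries or settings, and not each such shift is printed. The rises and falls of every group are to be read beside 15.2% and 14.2% of all genes tested. The 95% interval lay within 1.5-fold either way for 6064 genes, which bounds their change in these libraries.

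Several of the largest rises were in genes nearly silent on chow. Sprr1a, which encodes a cornified envelope protein, had 0, 0 and 0 CPM on chow and 9.75, 8.28, 8.93 and 11.9 CPM on high-fat diet. Counted against the mean floor of the chow libraries, it was at least 59.1-fold higher. Ttc39a, which encodes a tetratricopeptide repeat protein, had 0.188, 0 and 0.178 CPM on chow and 6.46, 12.4, 10.3 and 7.97 on high-fat diet, a log2 fold change of 6.15 ± 0.60 (SE). Ly6d, a surface antigen gene of keratinocytes and early B cells, rose from 2.35, 1.46 and 1.60 CPM to 41.2, 53.9, 33.9 and 48.4 CPM (4.60 ± 0.64, adjusted p = 2.0e-04). For each of these 3 genes every high-fat library lay above every chow library, as it did for 18.3% of all genes tested. Srgap3, a GTPase-activating protein gene, fell from 5.93, 12.3 and 7.69 to 0.268, 0.696, 0.547 and 0.478 CPM (-4.09 ± 0.40, adjusted p = 1.9e-06). The plot of fold change against mean level places these genes among all those tested.

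**Figure D1:**
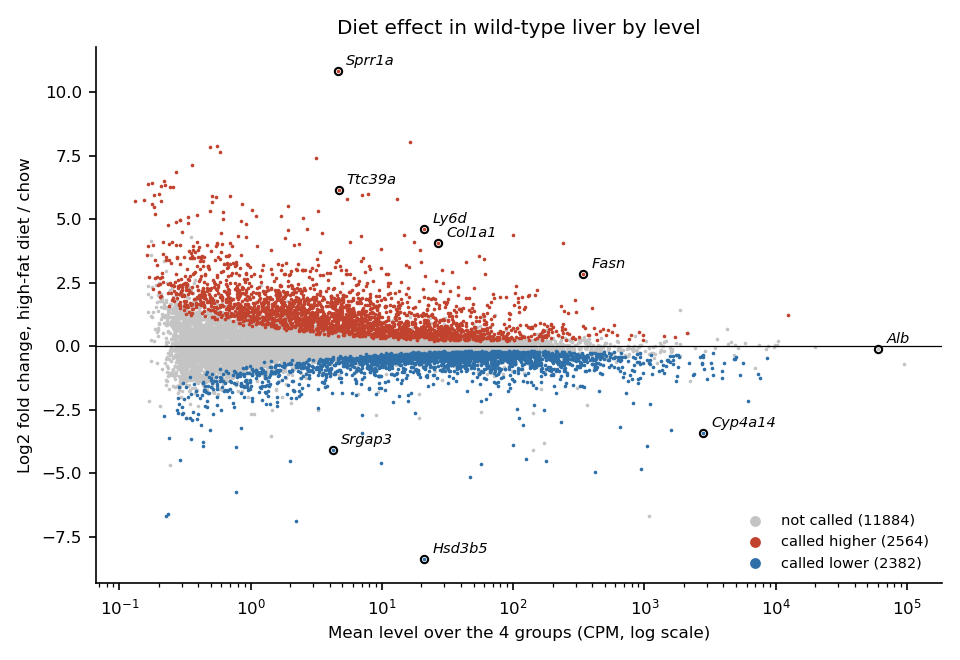
Log2 fold change between high-fat diet and chow in wild-type liver (vertical axis) against the mean level over the 4 groups in CPM (horizontal axis, log scale), 1 point per gene tested. Coloured points passed at an adjusted p under 0.05, and below 10 CPM rises outnumber falls while above 100 CPM falls outnumber rises. The height of Sprr1a, which had no counts on chow, depends on the fit's prior count.

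Genes of fatty acid synthesis rose together. Of 16 members tested 11 rose and 0 fell, beside 15.2% and 14.2% of all genes tested, with a median log2 fold change of 1.45. Their summed level was 8271 to 10533 CPM on chow and 20125 to 24631 CPM on high-fat diet. Fasn, which encodes fatty acid synthase, had 95.7, 80.4 and 88.8 CPM on chow and 509.7, 702, 532 and 802 CPM on high-fat diet, a log2 fold change of 2.85 ± 0.49 (adjusted p = 8.2e-04). Thrsp, a lipogenic regulator known as Spot 14, had 43.9, 8.74 and 34.4 CPM and 374, 502, 622 and 464 CPM, so that chow 2 was lowest and the groups stayed far apart (4.08 ± 0.53, adjusted p = 1.2e-04). Pnpla3, the mouse counterpart of a gene tied to human fatty liver, rose from 0.329, 0.175 and 0.237 CPM to 2.64, 4.73, 3.41 and 5.47 CPM (3.98 ± 0.78). Among the enzymes that lengthen fatty acids, Elovl6 rose from 50.9, 63.01 and 49.6 CPM to 200.03, 223, 195 and 239.7 CPM (1.98 ± 0.41, adjusted p = 0.0028). Elovl3, which is male-biased and acts on very long chains, fell from 179.5, 237 and 186 CPM to 41.8, 9.56, 27.5 and 14.9 CPM (-3.10 ± 0.47, adjusted p = 3.8e-04). The 2 elongases therefore moved in opposite directions in all 4 high-fat libraries.

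Glycolytic and glucose-handling genes split by step. Pklr, which encodes the pyruvate kinase of liver, rose from 171, 119 and 131 CPM to 399.5, 597, 513 and 498 CPM (1.84 ± 0.19, adjusted p = 3.4e-06). Hk2, a hexokinase usually low in hepatocytes, rose from 1.74, 0.990 and 0.888 CPM to 14.4, 13.98, 12.9 and 13.5 CPM (3.47 ± 0.30, adjusted p = 4.7e-07). Pck1, the gatekeeper of gluconeogenesis, fell from 3586, 4368 and 4606 CPM to 2107, 892, 2144 and 1736 CPM, with high-fat 2 lowest (-1.28 ± 0.26, adjusted p = 0.0020). Ppp1r3c, which targets a phosphatase to glycogen, fell as well (-1.78 ± 0.14), and so did the insulin receptor substrate gene Irs2 (-1.16 ± 0.27). Of the 26 genes of glucose and insulin signalling tested, 9 rose and 7 fell.

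Fatty acid oxidation genes fell together. Of 32 tested, 25 fell and 0 rose (median -0.65), and their summed level was 26342 to 31436 CPM on chow and 12928 to 15241 CPM on high-fat diet. The largest falls were in the microsomal omega-hydroxylases, classical PPAR-alpha targets. Cyp4a14 fell from 3856, 5104 and 3610.2 CPM to 499, 353, 360.2 and 336 CPM (-3.44 ± 0.40, adjusted p = 4.3e-05). Cyp4a10 fell from 2386, 3165 and 1968 CPM to 271, 279, 245 and 215 CPM (-3.31 ± 0.28, adjusted p = 1.9e-06). Reads of the Cyp4a genes, which are close copies of each other, may have been divided between them. The cytosolic acyl-CoA thioesterase Acot1, another PPAR-alpha target, fell from 173, 209 and 112 CPM to 28.01, 22.7, 24.7 and 16.2 CPM (-2.85 ± 0.21, adjusted p = 4.8e-07). Among the thioesterases as a group 4 rose and 4 fell of 13, and Acot9, a mitochondrial member, was among those that rose (1.60 ± 0.20). Ppara itself had 177 to 244 CPM on chow and 183 to 194 on the high-fat diet, and at -0.20 ± 0.09 on the log2 scale did not pass (adjusted p = 0.11), although it passed without chow 3 (-0.33, adjusted p = 0.0072) and was 0.07 with library totals alone. The nuclear-encoded subunits of oxidative phosphorylation lay close to no change. Of 40 tested 4 fell and 0 rose, with a median of -0.09 that turned to 0.17 with library totals alone, where 9 rose and 0 fell. Atp5b, a subunit of ATP synthase, had 891, 961 and 905 CPM on chow and 896, 889.99, 934 and 903 CPM on high-fat diet.

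Droplet and lipid uptake genes changed in both directions. Of 25 tested 7 rose and 10 fell (5 with library totals alone). Lpl, the lipase that releases fatty acids from lipoproteins, rose from 10.2, 6.46 and 8.52 CPM to 38.9, 73.4, 59.4 and 84.2 CPM (2.92 ± 0.24, adjusted p = 7.7e-07). Fabp4, a fatty acid carrier of fat cells and macrophages, rose from 4.37, 4.60 and 2.60 CPM to 17.9, 21.04, 22.3 and 26.5 CPM (2.50 ± 0.22, adjusted p = 7.3e-07). Cidec, which enlarges lipid droplets, rose by 1.59 ± 0.35 (adjusted p = 0.0041), and Mogat1, a monoacylglycerol acyltransferase, by 1.72 ± 0.28 (adjusted p = 2.3e-04). In a bulk tissue, a change in how many cells of a type are present and a change in RNA per cell cannot be told apart. G0s2, which inhibits the triglyceride lipase ATGL, fell from 184, 342 and 227 CPM to 77.5, 133, 104 and 63.6 CPM (-1.41 ± 0.28). Plin2, the main droplet coat gene of hepatocytes, had 864, 1078 and 781 CPM on chow and 987, 901, 906 and 786 CPM on high-fat diet, overlapping groups with a 95% interval of -0.38 to 0.34.

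**Figure D2:**
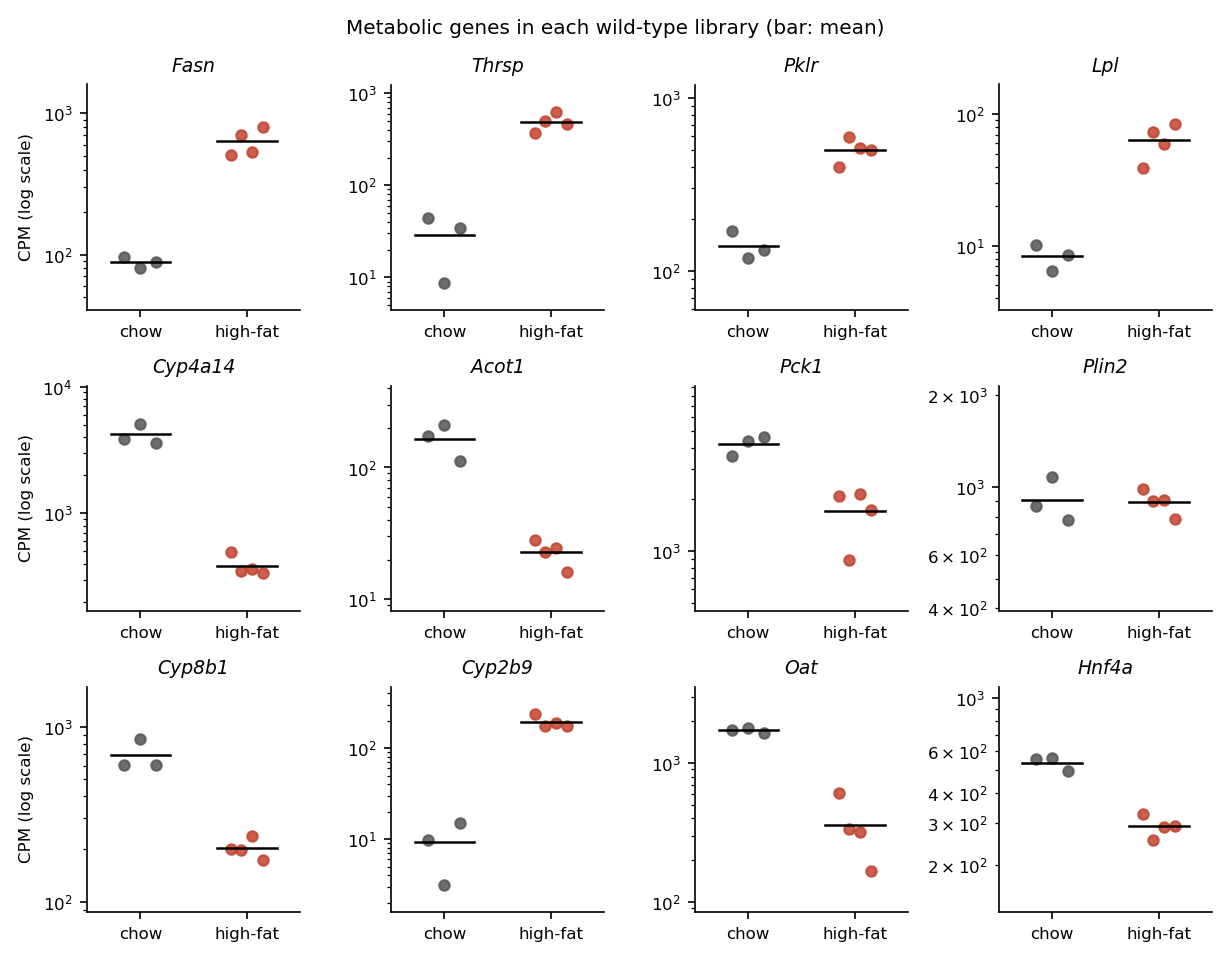
Level in CPM (vertical axis, log scale) of 12 genes of lipid, glucose and hepatocyte metabolism in each wild-type library, with 1 point per library (3 chow, 4 high-fat) and a bar at the group mean. Fasn, Thrsp, Pklr, Lpl and Cyp2b9 are higher and Cyp4a14, Acot1, Pck1, Cyp8b1, Oat and Hnf4a lower in all 4 high-fat libraries, while the Plin2 groups overlap.

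Cholesterol and lipoprotein genes moved less uniformly. Of 27 genes of cholesterol synthesis and uptake 5 rose and 3 fell, around a median of 0.08. These shares lay near the 15.2% and 14.2% of all genes tested. The count of rises was 1 without chow 2, 2 without high-fat 4 and 3 without chow 1, chow 3 or high-fat 2, and 8 in the fit of the wild-type libraries only. The lathosterol oxidase gene Sc5d rose from 183, 188 and 174 to 314, 270.3, 252 and 298 CPM (0.64 ± 0.18, adjusted p = 0.012). Tm7sf2, which encodes a sterol reductase earlier in the pathway, fell from 77.8, 89.2 and 76.6 CPM to 30.8, 27.7, 24.04 and 32.3 CPM (-1.50 ± 0.12, adjusted p = 2.8e-07). Abcg1, a sterol exporter prominent in macrophages, rose from 5.27, 4.31 and 3.20 CPM to 9.10, 15.3, 10.9 and 13.3 CPM (1.51 ± 0.21, adjusted p = 4.3e-05). The exporter Abca1 had 211 to 255 CPM on chow and 258 to 279 on the high-fat diet and did not pass (adjusted p = 0.088), but passed with library totals alone (0.0014) and without high-fat knockout 1 (0.049). Plasma lipoprotein genes fell in part, with 9 of 19 apolipoprotein and assembly genes lower (3 with library totals alone) and 2 higher. The share of falls, 47.37%, lay near the 43.8% of all genes averaging at least 100 CPM. Apoa1, the main protein of HDL, fell from 6626, 8077 and 6992 CPM to 4529, 4287, 4907 and 4399 CPM (-0.67 ± 0.10, adjusted p = 7.0e-05). Lcat, which esterifies cholesterol on HDL, fell from 436, 448 and 502 CPM to 265, 197, 243 and 226 CPM (-0.99 ± 0.10, adjusted p = 1.9e-06). Apoe had 9319 to 10513 CPM on chow and 9369 to 11342 on the high-fat diet, with a 95% interval of -0.17 to 0.23.

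Bile acid genes fell more often than they rose, 12 against 2 of 24 (median -0.39), and with library totals alone 8 fell and 5 rose. Their share of falls, 50%, is to be set beside the 43.8% of all genes averaging at least 100 CPM. Cyp8b1, the sterol 12-alpha-hydroxylase that sets how much cholic acid is made, fell from 604, 846 and 608 CPM to 201, 198, 237 and 175 CPM (-1.76 ± 0.25, adjusted p = 1.5e-04). Cyp7b1, the oxysterol hydroxylase of the alternative pathway, had 123, 368 and 125 CPM on chow and 54.8, 26.1, 41.4 and 25.7 CPM on high-fat diet (-2.47 ± 0.60, adjusted p = 0.0083). Chow 2 was the highest of its group, and without it the Cyp7b1 call was lost at -1.75 (adjusted p = 0.054). Cyp2c70, the enzyme that makes the muricholic acids of mice, rose from 29.4, 91.7 and 62.5 CPM to 183, 146, 188 and 194 CPM (1.54 ± 0.28, adjusted p = 0.0011).

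Male-biased genes of the growth hormone pathway had the lowest median log2 fold change of the gene groups described, -2.56. Of 26 such genes tested 15 fell and 0 rose. Their summed level was 12278 to 22899 CPM on chow and 7570 to 9965 CPM on high-fat diet, and by this measure other groups fell further. Hsd3b5 had the largest fall of all genes under the naming rule. Cyp4a12b, an androgen-dependent arachidonic acid hydroxylase, fell from 67.2, 124 and 74.3 CPM to 2.94, 2.99, 2.11 and 1.65 CPM (-5.16 ± 1.16, adjusted p = 0.0053). Hsd3b5, a male-specific steroid dehydrogenase, had 21.9, 85.96 and 20.6 CPM on chow and 0.306, 0.0348, 0.0842 and 0.0531 CPM on high-fat diet (-8.38 ± 2.59, adjusted p = 0.029). Slco1a1, an organic anion transporter, had 177, 225 and 132 CPM and 17.01, 6.68, 12.6 and 11.6 CPM (-3.90 ± 1.11, adjusted p = 0.020). Mup7, a major urinary protein gene, had 1314, 4064 and 841 CPM on chow and 63.2, 2.33, 11.5 and 2.55 CPM on high-fat diet, and did not pass (log2 -6.70 ± 2.42, adjusted p = 0.055). Every high-fat wild-type library lay below every chow library for these 4 genes, as for 17.7% of all genes tested. All 4 groups share 1 estimate of the spread, and high-fat knockout 1 differed from its group. It had 74.04 CPM of Hsd3b5 and 3013 CPM of Mup7, while the other high-fat knockout libraries had 0.204, 0.516, 0.0349 and 0.231 CPM of Hsd3b5. Without that library the log2 value of Hsd3b5 was -8.36 (adjusted p = 6.9e-05) and Mup7 passed at -6.68 (adjusted p = 0.0093). Mup7 also passed without high-fat 1 (adjusted p = 0.049), in the fit of the wild-type libraries only (0.031), and with voom (0.042) and DESeq2 (9.8e-04). With all groups in the fit, the Hsd3b5 call was lost with voom (adjusted p = 0.067), without chow 2 (log2 -7.37, adjusted p = 0.083) and without any 1 high-fat wild-type library (0.058 to 0.075, with a log2 fold change of -9.44 without high-fat 1), and that of Slco1a1 without high-fat 2 (0.057). The count of falls in the list was 5 without chow 2 and 6, 8 and 7 without high-fat 2, 3 and 4, and 9 with no filter on low counts. Mup20, which encodes the male pheromone darcin, had 2497, 4267 and 2841 CPM on chow and 3400.4, 5419.7, 6456 and 5039 CPM on high-fat diet (log2 0.67 ± 0.36, adjusted p = 0.18, and 0.045 with library totals alone). Mup genes are near-identical copies, and how reads were shared among them is uncertain.

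Of 19 female-biased genes tested 5 rose and 4 fell, and the falls numbered 1 in the fit of the wild-type libraries only and 1 with a stricter filter on low counts. Cyp2b9, a female-predominant P450, rose from 9.78, 3.14 and 15.3 CPM to 238, 177, 187 and 175 CPM (4.37 ± 0.75, adjusted p = 9.3e-04). Its neighbour in the family Cyp2b13 had 0.0470, 0 and 0.296 CPM on chow and 31.5, 26.8, 32.3 and 28.7 CPM on high-fat diet (adjusted p = 3.5e-06). The female-biased oxidase gene Hao2 rose from 0.329, 0.0582 and 0.0592 CPM to 9.33, 5.25, 5.39 and 6.32 CPM (adjusted p = 3.1e-05). The log2 fold change of Cyp2b13 was 8.03 (9.90 without chow 3), and that of Hao2 5.31 (6.68 without chow 1), and both rest on few chow counts. Among the falls, the P450 gene Cyp2c69 had 0.988, 14.5 and 1.36 CPM on chow and 0.0764, 0, 0 and 0.106 CPM on high-fat diet, with chow 2 far above the other chow libraries (-6.90 ± 1.38, adjusted p = 0.0021). Without chow 2 its log2 fold change was -4.65 (adjusted p = 0.0078). The related Cyp2c40 fell from 4.70, 34.6 and 4.02 CPM to 2.90, 1.91, 2.19 and 1.75 CPM (-2.70 ± 0.62, adjusted p = 0.0054), with -0.99 without chow 2 (adjusted p = 0.029) and no call in the fit of the wild-type libraries only (0.057). These Cyp2c genes are close copies, and how reads were shared among them is uncertain. The receptor gene Ghr had 436 to 521 CPM on chow and 437 to 511 on the high-fat diet, a 95% interval of -0.27 to 0.18 and no call. Igfbp2, a secreted binding protein of IGF1, fell from 277, 423 and 348 CPM to 68.4, 31.2, 36.4 and 38.3 CPM (-3.0 ± 0.37, adjusted p = 6.5e-05), and Igfals, which holds IGF1 in the circulation, was lower too (log2 -0.88, adjusted p = 6.8e-04).

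**Figure D3:**
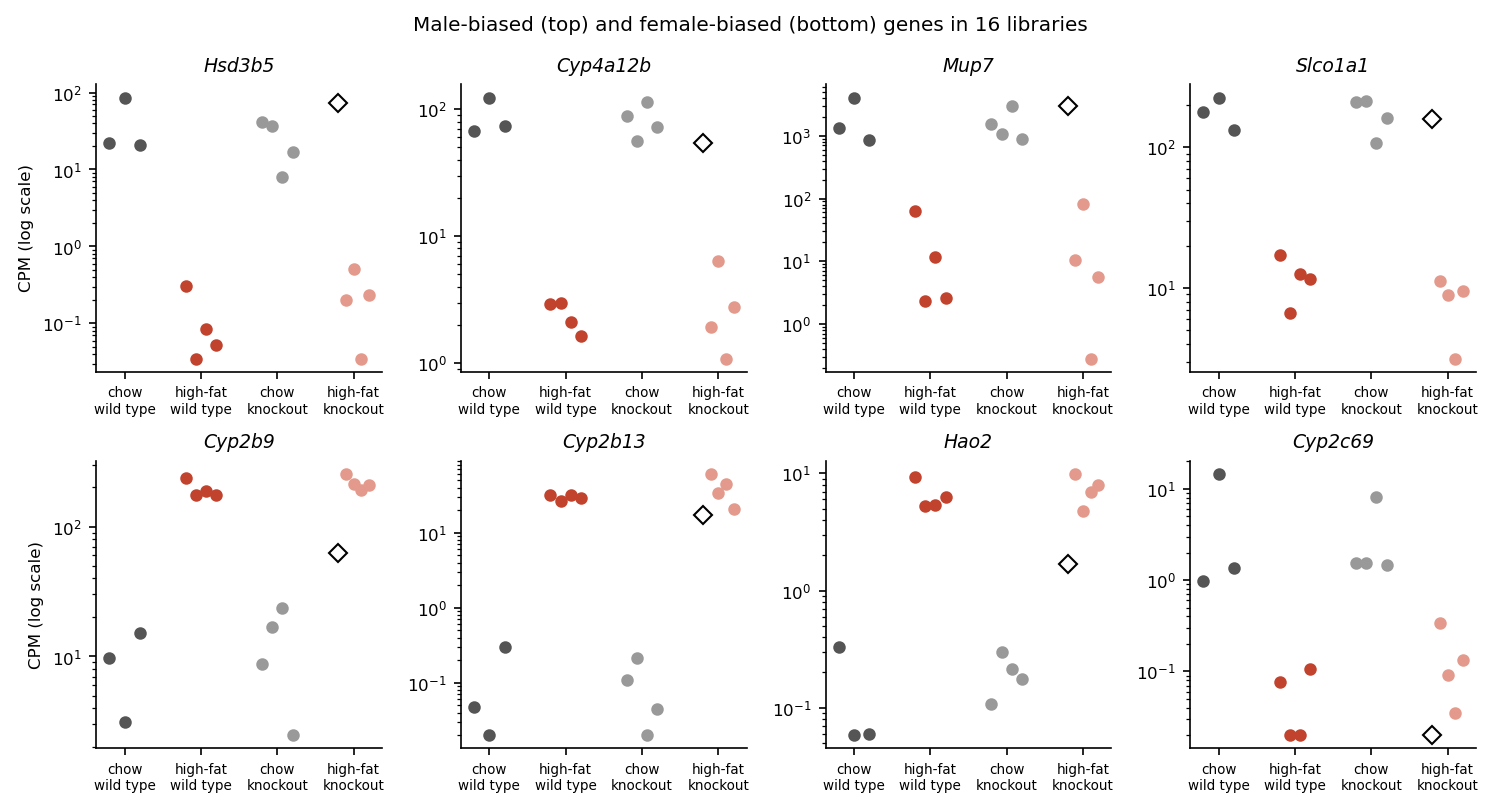
Level in CPM (vertical axis, log scale, values under 0.02 drawn at 0.02) of 4 male-biased genes (Hsd3b5, Cyp4a12b, Mup7, Slco1a1) and 4 female-biased genes (Cyp2b9, Cyp2b13, Hao2, Cyp2c69) in all 16 libraries, 1 point per library in 4 groups by diet and genotype. The open diamond is high-fat knockout 1, which lies at or near the chow libraries for the male-biased genes, while the 4 high-fat wild-type libraries lie below all chow wild-type libraries for these 4 genes and for Cyp2c69 and above them for Cyp2b9, Cyp2b13 and Hao2.

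Drug-metabolising enzymes fell more often than they rose. Of 41 P450 genes and their receptors 17 fell and 4 rose. The share of falls, 41.46%, lay near the 43.8% of all genes averaging at least 100 CPM. Cyp2e1, the ethanol-inducible P450 of pericentral hepatocytes, fell from 11215, 10300.000 and 9815 CPM to 5982, 3909, 4808 and 3076 CPM (-1.23 ± 0.19, adjusted p = 1.9e-04). Cyp1a2, another pericentral P450, fell from 361, 317 and 393 CPM to 177, 114, 110.1 and 84.01 CPM (-1.56 ± 0.33, adjusted p = 0.0034). Nr1i3, which encodes the xenobiotic receptor CAR, was also lower (log2 -1.08, adjusted p = 3.7e-05). Cyp3a11, a main P450 of drug clearance, had 1032 to 1935 CPM on chow and 1615 to 1806 on the high-fat diet and did not pass (adjusted p = 0.70). Antioxidant genes of the NRF2 response were higher in 10 of 21 cases and lower in 1. Hmox1, which degrades haem, rose from 13.8, 8.91 and 9.59 CPM to 35.1, 37.9, 26.1 and 35.6 CPM (1.64 ± 0.16, adjusted p = 1.3e-06). The glutathione transferase gene Gstm3 rose from 10.3, 5.42 and 10.6 CPM to 81.2, 142, 81.5 and 79.2 CPM (3.45 ± 0.52, adjusted p = 3.6e-04). Gsta1 rose from 0.329, 0.0582 and 0.710 CPM to 17.3, 25.6, 21.9 and 17.9 CPM (log2 5.82, adjusted p = 2.3e-04), a call that voom did not make (adjusted p = 0.064), and the value was 6.61 without chow 3.

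Genes that mark mature hepatocytes were lower. Of 17 hepatocyte markers 14 fell and 0 rose (7 and 0 with library totals alone), and their summed level was 126207 to 133848 CPM on chow and 86809.7 to 107444 CPM on high-fat diet. Among 18 liver transcription factors 8 fell and 0 rose (5 and 0 with library totals alone). Hnf4a, the master regulator of hepatocyte identity, fell from 556, 559 and 494 CPM to 329, 254, 288 and 292 CPM (-0.88 ± 0.11, adjusted p = 1.2e-05). Oat, which encodes ornithine aminotransferase of pericentral hepatocytes, fell from 1729, 1786 and 1646 CPM to 604, 337, 318 and 167 CPM, with high-fat 4 lowest (-2.27 ± 0.36, adjusted p = 4.2e-04). Glul, the glutamine synthetase of the same zone, had 1039 to 1386 CPM on chow and 1049 to 1588 on the high-fat diet and did not pass (adjusted p = 0.55, and 0.039 with library totals alone). Of 17 pericentral genes 8 fell and 1 rose. Genes of the urea cycle and amino acid breakdown fell in 13 of 27 cases, 7 with library totals alone and 8 without chow 3. The shares of falls among urea cycle, pericentral and transcription factor genes were 48.15, 47.06 and 44.44%. They lay near the 43.8% of all genes averaging at least 100 CPM. Agxt, which detoxifies glyoxylate, fell from 161, 254 and 269 to 147, 66.6, 116 and 116 CPM (-1.03 ± 0.23, adjusted p = 0.0040).

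Secreted plasma proteins followed. Of 38 complement and coagulation genes 23 fell (9 with library totals alone) and 1 rose, the anticoagulant protein S gene Pros1. C3, the central complement component, fell from 8026, 9666 and 12262 CPM to 5116, 4604, 4344 and 4868 CPM (-1.08 ± 0.14, adjusted p = 2.2e-05). C8b, a subunit of the membrane attack complex, fell from 173, 366 and 234 CPM to 58.5, 43.4, 50.9 and 52.8 CPM (-2.33 ± 0.48, adjusted p = 0.0030). Of 17 Serpina genes, of the serine protease inhibitor family, 10 fell and 4 rose. Serpina3k fell from 9007, 13196 and 9147 CPM to 2852, 1715, 2671 and 2075 CPM (-2.17 ± 0.36, adjusted p = 6.0e-04). Serpina7, which encodes thyroxine-binding globulin, rose from 59.98, 48.3 and 61.7 CPM to 259, 197, 226 and 239.8 CPM (2.02 ± 0.36, adjusted p = 0.0010). Acute phase genes had 4 rises and 6 falls of 21 with a median of -0.47, and chow 3 decided that sign. Without it there were 7 rises and 2 falls with a median of 0.16, and falls numbered 2 with library totals alone and 3 without high-fat 2. Steap4, a metalloreductase induced in inflammation, rose from 177, 113 and 125 CPM to 394, 335, 369 and 355 CPM (1.39 ± 0.18, adjusted p = 3.8e-05). The liver-secreted LAG3 ligand gene Fgl1 fell from 423, 539 and 822 CPM to 196, 200.3, 173 and 218 CPM (-1.59 ± 0.31, adjusted p = 0.0016). The hepatokine Fetub also fell (-1.14 ± 0.10), while Selenop, the selenium carrier, had 4697 to 5177 CPM on chow and 4805 to 5464 on the high-fat diet and a 95% interval of -0.15 to 0.25 (with library totals alone, adjusted p = 0.048).

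Fibrosis genes rose. Of 24 collagen genes 16 rose and 2 fell (0 with library totals alone), of 27 matrix proteases, inhibitors and cross-linkers 21 rose and 0 fell, and of 20 stellate cell and myofibroblast markers 17 rose and 0 fell. Col1a1, the main chain of scar collagen, rose from 3.90, 4.13 and 2.37 CPM to 38.8, 57.5, 58.03 and 78.3 CPM (4.06 ± 0.34, adjusted p = 1.9e-06). Col3a1, of the finer fibres, rose from 10.9, 9.20 and 8.05 CPM to 81.5, 119.6, 101 and 145 CPM (3.57 ± 0.24, adjusted p = 2.3e-07). Of these 4 high-fat libraries, high-fat 4 had the most of both collagens and high-fat 1 the least. Col18a1, a basement membrane collagen also made by hepatocytes, fell (-0.38 ± 0.08, adjusted p = 0.0023), a call lost with library totals alone (adjusted p = 0.44). Mmp12, the elastase of macrophages, had 0.376, 0.175 and 0.178 CPM on chow and 14.5, 17.6, 13.98 and 19.1 CPM on high-fat diet (5.98 ± 0.27). Vim, an intermediate filament gene of mesenchymal cells, rose from 9.69, 6.81 and 7.46 CPM to 48.2, 34.9, 45.5 and 61.2 CPM (2.56 ± 0.22, adjusted p = 1.0e-06). The smooth muscle actin gene Acta2, a sign of activated stellate cells, rose from 1.18, 1.22 and 0.355 CPM to 5.89, 3.44, 4.08 and 6.91 CPM (2.43 ± 0.61, adjusted p = 0.0073). The receptor Tgfbr2 rose by 1.53 (adjusted p = 3.9e-06), among 15 rises and 0 falls in 28 genes of profibrotic signalling. Reln, a stellate cell marker, had 45.03 to 53.7 CPM on chow and 54.04 to 77.1 on the high-fat diet and did not pass (adjusted p = 0.13), though it did with library totals alone (0.013) and in the fit of the wild-type libraries only (0.028).

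Macrophage genes rose alongside. Of 18 genes of lipid-associated macrophages, which take up lipid in fatty liver and fat tissue, 15 rose and 0 fell, with a median of 2.81. Gpnmb, a glycoprotein gene of such cells, had 0.282, 0.175 and 0.237 CPM on chow and 10.4, 16.3, 14.4 and 18.3 CPM on high-fat diet (5.95 ± 0.47, adjusted p = 4.1e-07). Cx3cr1, the fractalkine receptor, rose from 0.565, 0.874 and 0.592 CPM to 4.85, 4.63, 7.41 and 7.92 CPM (3.19 ± 0.35, adjusted p = 4.2e-06). Of 19 Kupffer cell and macrophage markers 13 rose and 0 fell, with a median of 1.32. Mpeg1, a pore-forming gene of macrophages, rose from 66.4, 53.1 and 36.5 CPM to 129.6, 207, 169 and 192 CPM (1.74 ± 0.22, adjusted p = 4.2e-05). Clec4f, the marker particular to resident Kupffer cells, had 53.3, 27.7 and 32.7 CPM and 46.97, 100.5, 54.2 and 60.04 CPM, with chow 1 above high-fat 1, and did not pass (log2 0.79 ± 0.31, adjusted p = 0.071). It passed without chow 1 (adjusted p = 0.024), without high-fat 1 (0.045), without high-fat knockout 1 (0.031), with library totals alone (0.021) and with DESeq2 (0.016). Lysosomal genes split, 13 higher and 7 lower of 40 (23 and 2 with library totals alone, and 4 lower without chow 2, chow 3 or high-fat 2). Cathepsin S, from the macrophage-rich gene Ctss, rose (1.86 ± 0.19), while Gaa, the acid glucosidase that hepatocytes use to degrade glycogen, fell from 72.5, 69.7 and 81.5 to 40.5, 37.1, 39.3 and 34.5 CPM (-0.98 ± 0.08, adjusted p = 4.7e-07).

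**Figure D4:**
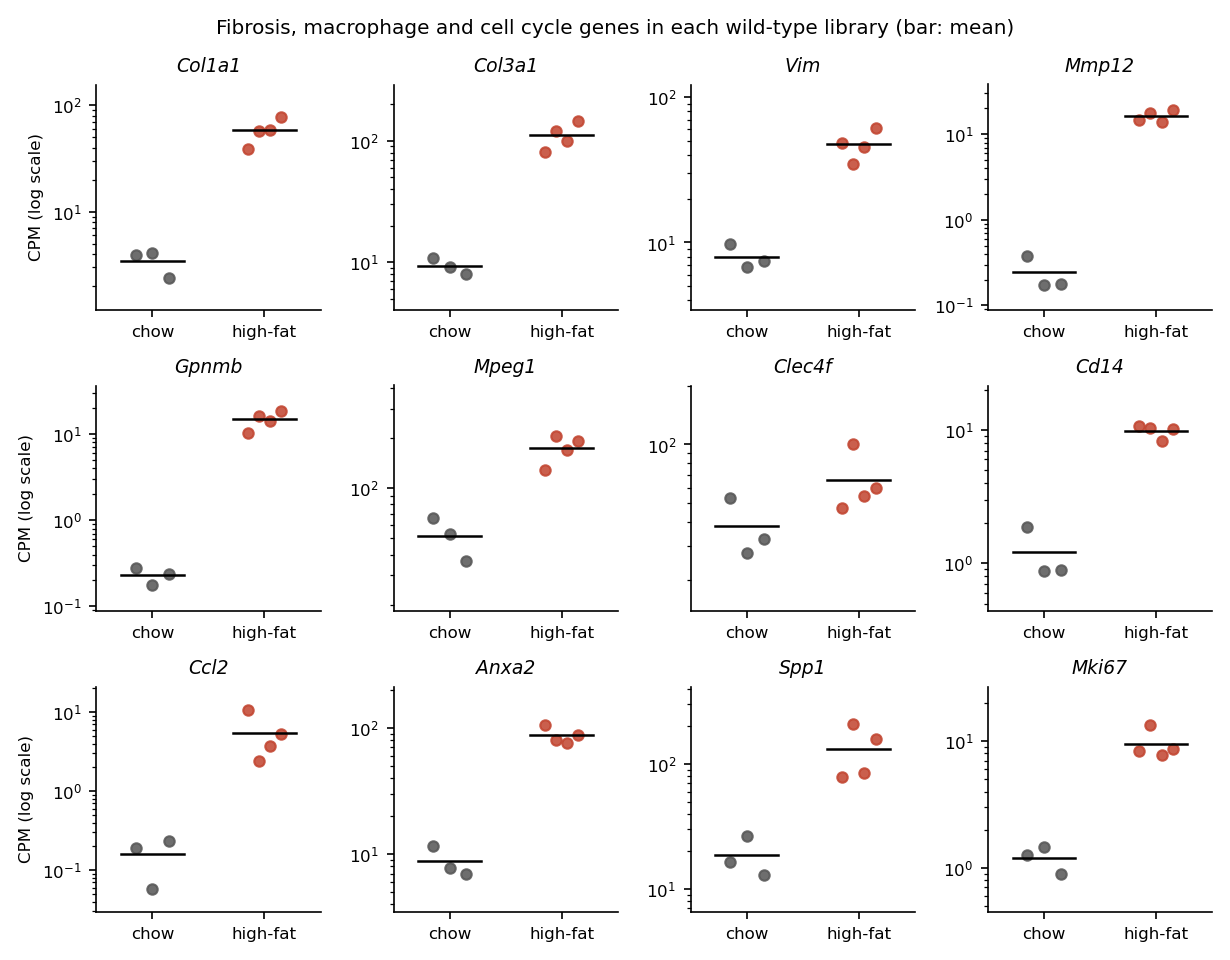
Level in CPM (vertical axis, log scale) of 12 genes of fibrosis, macrophages, inflammation and cell division in each wild-type library, with 1 point per library (3 chow, 4 high-fat) and a bar at the group mean. Every high-fat library lies above every chow library for Col1a1, Col3a1, Vim, Mmp12, Gpnmb, Mpeg1, Cd14, Ccl2, Anxa2, Spp1 and Mki67, while the Clec4f groups overlap.

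More genes of inflammatory mediators rose than fell, but their summed levels did not rise clearly. Of 35 chemokines and chemokine receptors 20 rose (13 with a stricter filter on low counts) and 3 fell. Their summed level was 341 to 393 CPM on chow and 305 to 342 CPM on high-fat diet. Of 31 Toll-like receptor, inflammasome and cytokine genes 18 rose and 1 fell, with overlapping sums of 373 to 470 CPM on chow and 458 to 487 CPM on high-fat diet. Ccl2, which draws monocytes, rose from 0.188, 0.0582 and 0.237 CPM to 10.6, 2.43, 3.75 and 5.37 CPM, with high-fat 1 highest and high-fat 2 lowest of their group (5.04 ± 0.71, adjusted p = 8.4e-05). Cd14, the lipopolysaccharide co-receptor, rose from 1.88, 0.874 and 0.888 CPM to 10.7, 10.3, 8.25 and 10.1 CPM (2.99 ± 0.24, adjusted p = 2.4e-07). Tlr2, a receptor for bacterial lipopeptides, rose by 2.69 (adjusted p = 4.7e-07). Cxcl12, the chemokine that retains leukocytes and is made by several stromal cells, fell from 260.2, 320.1 and 301 CPM to 156, 147, 151 and 150.4 CPM (-0.96 ± 0.12, adjusted p = 2.3e-05). Antigen presentation genes rose in 11 of 13 cases with 0 falls. H2-Aa, an MHC class II chain, rose from 31.3, 13.9 and 10.1 CPM to 45.1, 81.2, 60.9 and 91.4 CPM, with chow 1 the highest of its group (1.91 ± 0.40, adjusted p = 0.0033, and 2.53 without chow 1).

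Interferon-stimulated genes, by contrast, did not move as a block, with 10 higher and 3 lower of 32 and a median of 0.27. The rises numbered 6 without chow 2 or chow 3 and 16 with library totals alone, where 0 fell. Oas3, an antiviral oligoadenylate synthetase, rose from 0.941, 0.524 and 0.710 CPM to 2.48, 3.20, 2.74 and 2.60 CPM (1.90 ± 0.24, adjusted p = 2.0e-05). The promoters of the genes that rose were searched in the 250 bases before the transcription start of RefSeq's GRCm38.p6 for the core of the interferon-stimulated response element (GAAA, any 2 bases, GAAA), on both strands. Of the 8 risen members with a promoter sequence 5 held it, as did 3.46% of all promoters. Members of the list that did not rise were not counted, so the motif is not shown to be particular to those that rose. A stretch of 30 bases around the match nearest the 5′ end is shown for the 5 genes on the strand of the gene. The match is in capitals (in Gbp2 and Gbp3 its reverse complement).
Oas1a, chr5:120907526-120907555, minus strand: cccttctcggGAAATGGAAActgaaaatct
Oas3, chr5:120777715-120777744, minus strand: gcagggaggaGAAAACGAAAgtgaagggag
Bst2, chr8:71537583-71537612, minus strand: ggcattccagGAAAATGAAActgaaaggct
Gbp2, chr3:142620594-142620623, plus strand: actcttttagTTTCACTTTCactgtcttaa
Gbp3, chr3:142559989-142560018, plus strand: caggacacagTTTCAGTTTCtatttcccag
Beside Oas3, the log2 fold changes were 0.78 ± 0.25 for Oas1a (adjusted p = 0.024), 0.33 ± 0.09 for Bst2 (adjusted p = 0.014), 1.16 ± 0.41 for Gbp2 (adjusted p = 0.043) and 1.07 ± 0.34 for Gbp3 (adjusted p = 0.024), and these genes were chosen for the motif after their values were seen. The calls depended on single libraries, being lost for Oas1a without chow 1 (adjusted p = 0.086), chow 3 (adjusted p = 0.12) or high-fat 2 (adjusted p = 0.068), for Bst2 without chow 2 (adjusted p = 0.052), for Gbp2 without chow 2 (adjusted p = 0.16), chow 3 (adjusted p = 0.15), high-fat 1 (adjusted p = 0.068), high-fat 2 (adjusted p = 0.075) or high-fat 4 (adjusted p = 0.091) and for Gbp3 without chow 2 (adjusted p = 0.11), chow 3 (adjusted p = 0.11) or high-fat 2 (adjusted p = 0.073). Gbp3 had 1.75 without chow 1, and Gbp2 was not called with voom (adjusted p = 0.073) or with no filter (0.067). Overlapping matches occur in Oas1a, Bst2 and Gbp3, and a match is a description of sequence, not evidence of binding.

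The same search was made for TGANTCA, a loose form of the site of the AP-1 factor family, which has G or C in the middle. Matches with A or T in the middle, as in Trem2 and Ms4a7 below, were counted too. The loose form was found in 4 of 13 risen lipid-associated macrophage genes with a promoter sequence and in 7.82% of all promoters. It was also held by 5 of 13 fallen hepatocyte markers, 4 of 8 fallen Serpina genes, and by 0 of 13 risen stellate cell markers. Both motifs shown were picked from 8 searched in 50 groups of risen or fallen list members. Stretches of the 4 macrophage genes, shown because Mmp12 gave one of the largest rises of all genes, are as follows.
Trem2, chr17:48346371-48346400, plus strand: cctcacgcccttctccctcctTGAATCAca
Mmp12, chr9:7347319-7347348, plus strand: gacatcaacagTGAGTCAgatagaggattt
Itgax, chr7:128129483-128129512, plus strand: cccacctcctcTGAGTCAcgctgacaactt
Ms4a7, chr19:11334758-11334787, minus strand: caggaacatttTGATTCAtgcaaactatat
Trem2, the lipid receptor of these macrophages, Itgax, an integrin of dendritic cells and macrophages, and Ms4a7 had log2 fold changes of 3.05 ± 0.49 for Trem2 (adjusted p = 1.9e-04), 2.79 ± 0.36 for Itgax (adjusted p = 2.1e-05) and 2.86 ± 0.54 for Ms4a7 (adjusted p = 7.1e-04), likewise named for the motif.

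Genes of the cell cycle and fetal and tumour-associated liver genes rose from low levels. Of 30 cell cycle genes 24 rose and 0 fell, with a median of 1.64 and a summed level of 76.4 to 97.3 CPM on chow and 189 to 222 CPM on high-fat diet. Mki67, the proliferation antigen Ki-67, rose from 1.27, 1.46 and 0.888 CPM to 8.29, 13.5, 7.83 and 8.61 CPM (2.98 ± 0.31, adjusted p = 2.5e-06). Top2a, the topoisomerase of dividing cells, rose from 0.0941, 0.408 and 0.296 CPM to 3.97, 5.32, 3.92 and 3.83 CPM (4.03 ± 0.44, adjusted p = 4.1e-06). The libraries do not say which cells this RNA came from, and cell division itself was not measured. Cdkn1a, the cell cycle inhibitor p21, had 7.51 to 13.8 CPM on chow and 16.01 to 18.2 on the high-fat diet and did not pass (adjusted p = 0.12), though it passed with library totals alone (0.041) and in the fit of the wild-type libraries only (0.019). Other p53 targets rose, with 7 of 21 cell death and p53 genes higher (16 with library totals alone) and 0 lower. The death receptor gene Eda2r rose from 0.565, 0.408 and 0.888 CPM to 4.17, 4.45, 2.78 and 5.15 CPM (2.73 ± 0.37, adjusted p = 3.8e-05). Fetal and tumour-associated liver genes rose in 9 of 16 cases with 0 falls. H19, an imprinted fetal RNA, had 0.0941, 0.175 and 0.118 CPM on chow and 0.420, 13.6, 2.61 and 7.92 CPM on high-fat diet, a wide spread (5.54 ± 1.43, adjusted p = 0.011), and voom did not call it (adjusted p = 0.22, log2 4.45). Without high-fat 2 its log2 fold change was 4.76. Spp1, which encodes osteopontin of ductular cells and macrophages, rose from 16.5, 26.4 and 12.96 CPM to 78.5, 208, 85.2 and 158 CPM (2.83 ± 0.41, adjusted p = 2.4e-04).

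Structural genes rose with them. Of 26 cytoskeleton genes 18 rose and 1 fell, and of 21 S100 and annexin genes 13 rose and 0 fell. Anxa2, a membrane-bridging annexin, rose from 11.7, 7.80 and 6.92 CPM to 106, 79.8, 76.3 and 87.4 CPM (3.30 ± 0.41, adjusted p = 7.9e-05). The tubulin gene Tuba1a rose from 3.10, 2.74 and 2.13 CPM to 11.7, 11.4, 10.7 and 15.7 CPM (2.21 ± 0.23, adjusted p = 2.5e-06), while Pfn1, an actin-binding housekeeping gene, had 159 to 178 CPM on chow and 156 to 168 on the high-fat diet and a 95% interval of -0.20 to 0.08.

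Of 28 stress response genes 3 rose (7 with library totals alone) and 3 fell, below the 15.2% and 14.2% of all genes tested. Atf3, an early stress factor, rose from 0.894, 0.757 and 0.533 CPM to 4.66, 4.90, 5.73 and 8.61 CPM (3.0 ± 0.33, adjusted p = 4.7e-06), whereas Herpud1, of protein quality control in the endoplasmic reticulum, fell from 479.5, 599 and 492 CPM to 329, 249.7, 365 and 339 CPM (-0.71 ± 0.13, adjusted p = 6.7e-04). The clock had 5 rises (2 without chow 2 and 3 without chow 3) and 6 falls in 19 genes. Nr1d1, which encodes the repressor REV-ERB-alpha, fell from 99.7, 178 and 132 CPM to 56.2, 38.95, 41.1 and 58.7 CPM (-1.49 ± 0.24, adjusted p = 3.3e-04), and Cry1, a repressor of the opposite phase, rose from 4.70, 4.13 and 3.85 CPM to 8.45, 7.76, 10.1 and 7.97 CPM (1.01 ± 0.19, adjusted p = 5.5e-04). The hour of collection is not stated by the labels, and its part in these changes was not tested. Of 19 genes of iron handling 5 rose and 3 fell, against 8 and 1 with library totals alone and 6 and 6 in the fit of the wild-type libraries only. Hamp2, a homologue of the iron hormone hepcidin, rose from 3.25, 1.57 and 4.02 CPM to 31.5, 15.8, 20.002 and 41.1 CPM (3.19 ± 0.62, adjusted p = 0.0020), and the iron sensor gene Tfr2 fell (-0.85 ± 0.13). Smpd3, a neutral sphingomyelinase, rose from 1.32, 2.50 and 3.55 CPM to 9.40, 24.2, 16.3 and 20.03 CPM (2.85 ± 0.53, adjusted p = 0.0012). Of 28 sphingolipid genes 9 rose and 2 fell, beside 15.2% and 14.2% of all genes tested, and 20 rose and 0 fell with library totals alone.

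Markers of other cell types were read in the same libraries. Sinusoidal endothelial markers had 11 rises and 1 fall in 24 (7 and 2 without chow 3) and summed levels of 403 to 515 CPM on chow and 489.6 to 611 CPM on high-fat diet. The hyaluronan receptor gene Lyve1 rose from 9.31, 8.15 and 5.56 CPM to 15.1, 22.3, 24.1 and 24.3 CPM (1.48 ± 0.35, adjusted p = 0.0056), and Stab2, another defining marker of these cells, had 32.5 to 38.2 CPM on chow and 31.4 to 50.9 on the high-fat diet and did not pass (adjusted p = 0.40, and 0.033 with library totals alone). Cholangiocyte markers summed to 118 to 141 CPM on chow and 199 to 385 CPM on high-fat diet, with 6 rises in 14, Spp1 among them. Most of the rise of that sum was in Spp1, which is also a gene of macrophages. T and NK cell markers summed to 2.78 to 5.88 CPM on chow and 4.21 to 8.17 CPM on high-fat diet, with 1 rise in 14. B and plasma cell markers summed to 11.1 to 15.1 CPM on chow and 15.6 to 36.4 CPM on high-fat diet, with 0 called of 10 by edgeR and 3 by DESeq2. Neutrophil markers passed the filter on low counts in 3 cases and summed to 1.07 to 1.98 CPM on chow and 2.53 to 4.78 CPM on high-fat diet. Erythroid markers summed to 516 to 620.3 CPM on chow and 918 to 2161 CPM on high-fat diet. Haemoglobin Hba-a2 had 128, 147 and 123 CPM and 274, 612, 246 and 461 CPM (log2 1.59, adjusted p = 0.019), a call lost without chow 1, chow 3 or high-fat 2 (adjusted p = 0.057, 0.064 and 0.053). High-fat 2 and high-fat 4 were highest for Hba-a2, as they were for Spp1, Mpeg1 and H2-Aa. The part of cell numbers in the changes of macrophage, stellate, endothelial and hepatocyte genes was not tested.

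The knockout libraries repeated the diet contrast in another genotype. Their title numbers split by diet in the same way, so an effect of the diet and one of the series cannot be told apart here either. In knockout 5650 genes (33.6%) passed, 2922 higher (17.4%) and 2728 lower (16.2%). In both genotypes 3613 genes passed in the same direction, 73.05% of the wild-type list and 63.9% of the knockout list. Of the 4946 genes called in wild type, 97.8% had the same sign in knockout, as did 80.1% of all genes tested. Genes are not independent replicates, and across them the 2 sets of fold changes had a Pearson r of 0.816 over 16830 genes. Among genes changed at least 2-fold in wild type the median ratio of the knockout to the wild-type log2 fold change was 0.733, and these genes were chosen on their wild-type values. Knockout values for genes described above were 3.40 ± 0.29 for Col1a1, 2.87 ± 0.42 for Fasn, -4.26 ± 0.37 for Cyp4a14 and 2.54 ± 0.26 for Mki67. The values of Hsd3b5 and Mup7 in knockout were -0.83 ± 1.38 and -1.39 ± 1.76, with high-fat knockout 1 among the 5 libraries. Without that library they were -6.62 (adjusted p = 1.1e-04) and -6.04 (adjusted p = 0.011), and 3721 genes passed in both genotypes.

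A test of the difference between genotypes found no gene past an adjusted p under 0.05 with edgeR or with voom, while 1110 genes (6.60%) reached an unadjusted p below 0.05 and DESeq2's Wald test found 13. With edgeR 4 genes passed without chow 1 and 1 without high-fat knockout 1. The smallest p belonged to Cd93, a receptor of endothelial and myeloid cells, which had 5.74 to 8.56 CPM on chow and 18.2 to 21.998 on the high-fat diet in wild type (log2 1.40 ± 0.15) and 0.47 ± 0.12 in knockout. Only Abhd18 and Trim32 of the genes called in both genotypes went in opposite directions. Trim32, a ubiquitin ligase gene, rose in wild type from 5.97, 6.12 and 6.04 to 8.87, 9.67, 7.16 and 8.50 CPM (0.50 ± 0.15) and fell in knockout (-0.43 ± 0.12), a difference of -0.93 ± 0.19 that did not pass after adjustment over all genes (adjusted p = 0.42). Sinusoidal endothelial markers, with 11 rises and 1 fall of 24 in wild type, had 2 rises and 8 falls in knockout, and 14 of them reached an unadjusted p below 0.05 for the difference. Leaving out high-fat knockout 1 gave 3 rises and 9 falls in knockout, and library totals alone gave 8 and 5. Genes of cholesterol synthesis and uptake, with 5 rises of 27 in wild type, had 13 in knockout, where 3 fell (also 3 in wild type), and 2 reached an unadjusted p below 0.05 for the difference, or 8 without high-fat knockout 1. Both lists were picked after their values were seen, and no single member passed for the difference with all libraries in the edgeR fit.

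**Figure D5:**
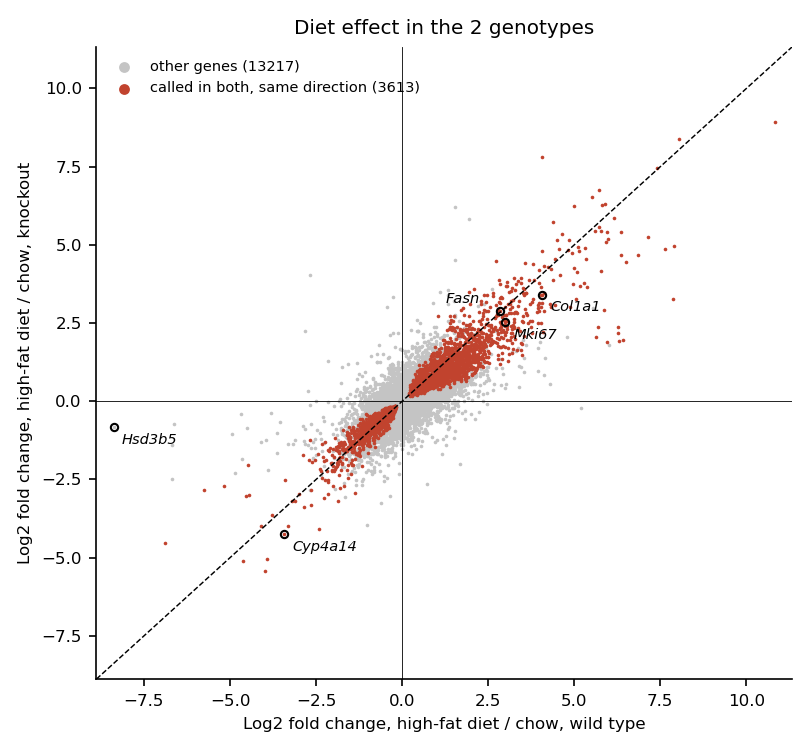
Log2 fold change between high-fat diet and chow in knockout livers (vertical axis) against that in wild-type livers (horizontal axis), 1 point per gene tested, with coloured points for genes called in both genotypes in the same direction. The dashed line marks equal changes, coloured points lie by definition in the lower left and upper right of the plot, and the labelled Hsd3b5 lies at -8.38 in wild type and -0.83 in knockout with high-fat knockout 1, against -6.62 in knockout without it.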

How the data were processed

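Liver RNA was measured by RNA sequencing after ribosomal RNA depletion. Per the labels' protocols TopHat2 aligned the trimmed reads and Cuffdiff quantified them, with the build mm10 in the submitters' processing notes. The sources used here state no versions, strand or making of the table. The deposited table's name speaks of both gene counts and FPKM, and its values were read as estimated counts, since library totals differ and 29.4 to 31.1% of the values above 0 per library are exactly whole. How the authors made them is unstated, the labels' protocols name a small RNA library kit, and were the values scaled by length, levels and tests would mean something else. They were rounded to whole numbers. Of 23258 rows 22 had names turned into dates, of which 19 were recovered by coordinates. Genes were filtered with filterByExpr, scaled by TMM and tested with edgeR 4.0.16 (robust quasi-likelihood F test, two-sided, 12 residual degrees of freedom) in 1 fit of all 16 libraries with 4 group means, p-values adjusted over every gene tested (Benjamini-Hochberg) and a threshold of 0.05. Every adjusted p is from this fit unless another tool is named. SE is that of the log2 fold change and was not estimated separately. It was worked back from the size of that change and the F statistic of its test. Intervals are 95% and are built on this SE. The log2 fold change depends on the fit's prior count where a group has few counts. SE and intervals are therefore approximate, most of all for genes nearly silent in a group. Marker and pathway sums are in CPM. Alternatives were other scalings, filters, DESeq2 1.42.0, voom in limma 3.58.1, the wild-type libraries only, and each wild-type library left out. The scripts were tested on simulated data in which 16630 of 16830 genes were unchanged, unlike the libraries here. There edgeR recovered 38.8% of changes of 1.5-fold, 62.7% of 2-fold and 86.4% of 4-fold, and called 0.012% of the unchanged genes. A gene that did not pass may therefore still have changed. No 2 libraries of the same group agreed within counting noise, and pairs from different groups were not compared in this way. Intervals and floors cover counting and library spread, not reads shared between gene copies. A range of totals and floors is given with the results. Promoters are from RefSeq (GRCm38.p6), matched for 10937 genes tested. Members and lists were chosen with earlier results of these data known. Genes were named by rule: the 12 largest rises and 12 largest falls at 5 CPM or more without overlap, up to 3 risen, 3 fallen and 2 abundant uncalled members of each list, the 10 largest changes per length each way, the 5 smallest p for the difference between genotypes and the 8 with the largest spread on high-fat diet, and not all are printed. Some withheld items are not reported here.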

Additional observations from a re-analysis of the deposited data

Results flagged for a closer look

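In 140 groups of 4 or 5 libraries checked for a value far from the rest (Dixon's test at the 95% level, which chance passes in about 1 of 20 groups), 11 stood apart. Of these, 4 were in high-fat knockout 1, the male-biased genes Hsd3b5 at 74.04 CPM (others 0.0349 to 0.516), Cyp4a12b at 53.9 CPM (others 1.08 to 6.34), Slco1a1 at 159 CPM (others 3.14 to 11.2) and Mup7 at 3013 CPM (others 0.279 to 80.9). High-fat wild-type 2 stood above its group for the cell cycle genes Mki67, at 13.5 CPM (others 7.83 to 8.61), and Top2a, at 5.32 CPM (others 3.83 to 3.97). The same library was highest for Gstm3, at 142 CPM (others 79.2 to 81.5), and for Oas1a, at 5.56 CPM (others 4.41 to 4.55). High-fat wild-type 1 was highest for Cyp4a14, at 499 CPM (others 336 to 360.2), and for Mup7, at 63.2 CPM (others 2.33 to 11.5). Among the chow knockout libraries, number 3 was highest for the female-biased gene Cyp2c69, at 8.07 CPM (others 1.46 to 1.55).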

How the results depend on the processing

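The counts of genes called, changed at least 2-fold, bounded and called in both genotypes, both directions pooled, stayed within 1.5 times under all 18 alternatives that gave a value. Their split by direction did not. With library totals alone genes called higher went from 2564 to 4748 and genes called lower from 2382 to 709. Falls of at least 2-fold went from 410 to 217. The fit of the wild-type libraries only gives no knockout value. No gene passed for the difference between genotypes in the chosen fit, against 13 with DESeq2, 0 to 4 with each wild-type library left out and 1 without high-fat knockout 1, the last chosen after seeing the data. Of 106 called genes named, 13 lost the call under at least 1 alternative and none changed sign. Signs turned for 9 genes that were not called. With library totals alone the log2 fold change was 0.134 for Alb, 0.243 for Atp5b, 0.210 for Ghr, 0.203 for Pfn1, 0.249 for Plin2 and 0.0654 for Ppara, and Plin2 had 2.6e-04 with upper quartile scaling. With each wild-type library left out, the log2 fold change ran from -0.0217 (and -0.0191 without chow 2) to 0.0718 for Apoe, from -0.0429 to 0.0124 for Atp5b, from -0.103 to 0.303 for Cyp3a11, from -2.3e-03 to 0.218 for Glul and from -0.117 to 0.122 for Plin2. Without chow 3 and high-fat knockout 1 together Ghr had 0.0116. The cause was not tested. No paired analysis was possible because the labels give the groups no shared replicate numbers. Genes under about 1 CPM on chow rest on few counts, and their fold changes are the least precise.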

Other observations

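Of 12 enzymes that assemble triglyceride 2 rose and 4 fell (3 and 1 with library totals alone), beside 15.2% and 14.2% of all genes tested. Gpat4, an acyltransferase of the first step, fell from 249, 295 and 292 CPM to 183, 125, 164 and 129 CPM (-0.89 ± 0.13, edgeR adjusted p = 7.9e-05). Dgat1, one of the enzymes of the last step, fell from 15.1, 18.2 and 18.2 CPM to 11.5, 12.5, 12.5 and 12.7 CPM (-0.48 ± 0.11, adjusted p = 0.0024), while Dgat2, the other, had 462 to 517 CPM on chow and 508 to 569 on the high-fat diet and a 95% interval of -0.02 to 0.31. With library totals alone Dgat1 did not pass (adjusted p = 0.22) and Dgat2 passed as higher (0.0036). Of 12 enzymes that lengthen and desaturate fatty acids 6 rose and 2 fell. Elovl7, an elongase, rose from 0.188, 0.233 and 0.118 CPM to 3.48, 3.93, 2.82 and 3.83 CPM (4.24 ± 0.54, adjusted p = 2.2e-05).

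Conjugation enzymes, which make drugs and steroids soluble, had 8 rises and 13 falls of 45, beside 15.2% and 14.2% of all genes tested. With library totals alone there were 17 rises and 5 falls. The rises numbered 4 without chow 2, and the falls 8 without chow 2 or high-fat 4 and 6 without high-fat 2. Sult1c2, a sulfotransferase, rose from 3.58, 1.46 and 3.49 CPM to 7.83, 12.9, 10.1 and 12.2 CPM (1.91 ± 0.27, adjusted p = 5.1e-05), and Nat8, an acetyltransferase, fell from 21.8, 18.8 and 18.2 CPM to 8.87, 8.76, 7.07 and 6.59 CPM (-1.32 ± 0.30, adjusted p = 0.0036). Igfbp3, the main IGF1 carrier and in liver a product of non-parenchymal cells, rose from 18.9, 16.7 and 14.5 CPM to 22.9, 25.8, 32.2 and 39.9 CPM (0.85 ± 0.20, adjusted p = 0.0040) while Igfbp2 and Igfals fell.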
